A study of Homo sapiens with 3 samples.

Results

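Gene expression after knockdown of METTL3 was compared with that under a control hairpin in MIAPaCa-2 cells, a human cell line established from a pancreatic carcinoma and labelled as epithelial. The compared libraries were sh-CTL, from cells carrying the control short hairpin, and sh-METTL3, from cells carrying a hairpin against METTL3, both untreated. The series held 3 libraries in all. The third, sh-CTL + PLK1i, came from control-hairpin cells exposed for 24 h to 80 nM of NMS-P937, which inhibits PLK1, and its values are printed beside the others as a further control-hairpin library. Below, the libraries are called the control, the knockdown and the inhibitor library, and where 3 normalized read counts stand in a row they are in that order. All cells were grown in the same serum-supplemented DMEM, and the sh-METTL3 cells were a stable line received from an earlier study, so that the hairpin and the history of the line cannot be told apart. Each group had 1 library, and no difference below has a replicate check or a p-value.

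METTL3 is the catalytic subunit of the nuclear complex that adds a methyl group to adenosine in messenger RNA, giving N6-methyladenosine (m6A). The complex acts within the letters known as DRACH, most often GGACT, and marks are dense in long internal exons and around the stop codon. Reader proteins bind the mark and alter the stability and translation of the transcript. PLK1, the transcript followed by the study, encodes a kinase that drives entry into and passage through mitosis.

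The genes described are the 10782 with a mean normalized read count of 200 or more over the 3 libraries, out of 14949 in the table (72.1%). They held 99.3% of the reads in both compared libraries. The totals were 37449323 reads for the control, 46944881 for the knockdown and 47727504 for the inhibitor library. The last gene under the limit was LINC01002 with a mean of 199.7, and the first within it was DTWD2 with 200.01. The limit for calling a gene higher or lower was passed when log2(normalized read count + 1) differed by 1 or more between sh-METTL3 and sh-CTL. Intervals of single genes are exact 95% intervals of the ratio of reads. They cover counting error only and compare 2 libraries, not 2 conditions. In such bulk libraries, fewer cells of a type and less RNA per cell cannot be told apart.

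The labelled cell type was compared with its markers. KRT8 and KRT18, the simple-epithelial keratins, had normalized read counts of 96333 and 51258 in sh-CTL and of 115118 and 62014 in sh-METTL3. Of the 6 pancreatic duct markers 3 had a row, KRT19, SOX9 and MUC1, all among the described genes, with changes of 0.43, -0.18 and 0.37. The other defining epithelial genes looked for, EPCAM and CDH1, had no row here. None of the 5 acinar, 5 endocrine and 4 endothelial markers had a row. Of the 5 leukocyte markers, CD68, a lysosomal protein found in many cell types, went from 1755 to 3243 and CD14 from 43.1 to 39.9, while PTPRC had no row. Of the 6 fibroblast markers 3 had a row, and all were lower in value in the knockdown: COL1A2 went from 51425 to 40969, COL1A1 from 39.6 to 5.56 and COL3A1, past the limit, from 615 to 42.6.

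METTL3 itself (ENSG00000165819, protein-coding, GRCh37 chromosome 14, 21966277 to 21979484, minus strand) had normalized read counts of 3939, 1651 and 3888, so that the knockdown library stood at 41.9% of the control. It was 1 of 123 genes counted as lower, which made up 1.14% of the described genes. Another 111 genes (1.03%) were higher, so that 2.17% passed the limit either way. Ordered by their change, METTL3 was number 82 from the bottom.

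No other gene of the m6A machinery passed the limit. The list of writers, erasers and readers had 18 described genes, of which METTL3 was lower and none was higher, with a median change of -0.06 against -0.01 over all described genes. Among the writer complex, METTL14, the RNA-binding partner of METTL3, changed by -0.11, WTAP, the adaptor that places the complex in nuclear speckles, by -0.07, and METTL16, a separate methyltransferase, by 0.15. The demethylases ALKBH5 and FTO were at -0.17 and -0.06. Of the readers, IGF2BP2 and IGF2BP3, proteins that stabilize marked transcripts, were at -0.33 and -0.23, and the YTH-domain readers lay between -0.07 and 0.12.

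PLK1 (ENSG00000166851, protein-coding, GRCh37 chromosome 16, 23688977 to 23701688, plus strand) had normalized read counts of 8058 in the control, 5226 in the knockdown and 8515 in the inhibitor library. Its change of -0.62 did not reach the limit, and 321 described genes (2.98%) were at or below it. The letters of the transcript that the study set out to edit are shown here because they hold the letters in which METTL3 is known to act. In the 3′ UTR of PLK1, which lies in its last exon, 3 DRACH matches were found, of which 1 was GGACT. The guide target of the study matched GRCh37 once on chromosome 16, on the strand opposite to the transcript, 20 bases downstream of that GGACT. In the first line capitals mark the GGACT, at chr16:23701392-23701416 on the plus strand, and the second line is the guide target at chr16:23701427-23701446 on the minus strand.
PLK1 GGACT window: cctcccctccGGACTggtgccctcc
PLK1 guide target: agtatgggccccagatgcag

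The first G of this GGACT lies 18 bases after the stop codon. No measurement of methylation is part of these libraries, so the motif is given as a position only.

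The genes around PLK1 in mitosis did not share its size of change. Of the 24 genes in the PLK1 circuit list, none passed the limit in either direction and the median was -0.03. PLK1 was the lowest of them. The kinases PLK2, PLK3 and PLK4 were at -0.03, -0.05 and -0.02. AURKA and BORA, which activate PLK1, were at 0.14 and 0.04. FOXM1 and MYBL2, transcription factors of mitotic genes, were at -0.03 and -0.21. Among substrates and partners, CDC25B, a phosphatase that activates CDK1, was at -0.44, SGO1, which protects centromeric cohesion, at -0.34, CDK1 at 0.14 and KIF20A, a kinesin of the midzone that binds PLK1, at 0.34.

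**Figure D1:**
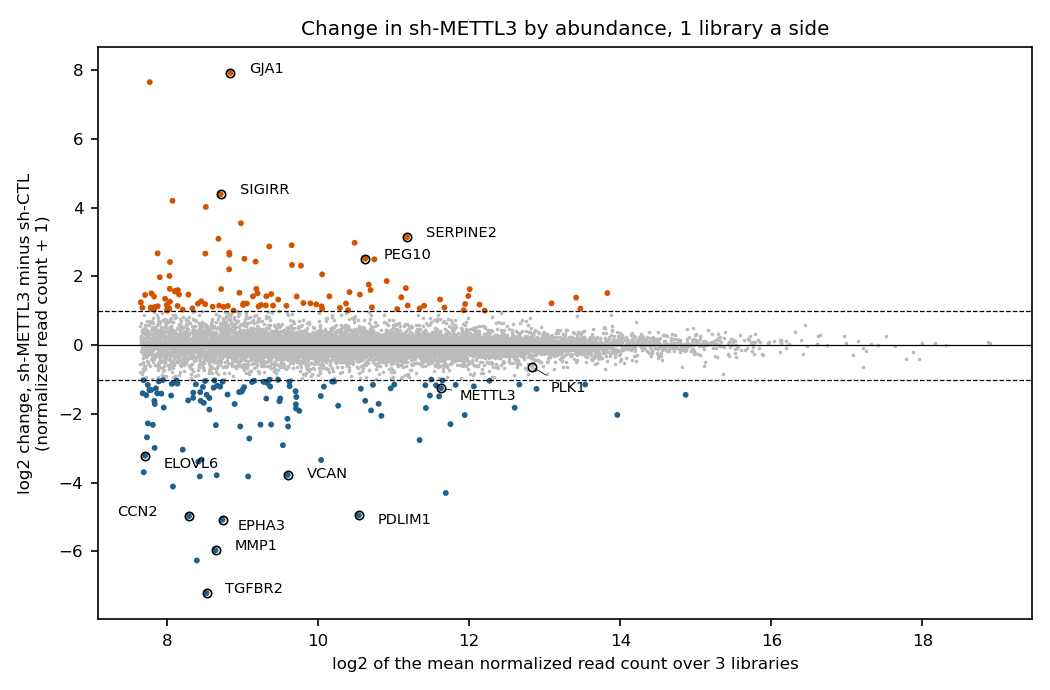
Each point is 1 of the 10782 described genes, with the log2 of its mean normalized read count over 3 libraries on the x axis and its log2 change between sh-METTL3 and sh-CTL on the y axis. Dashed lines mark a change of 1 in size, coloured points lie beyond them (111 higher, 123 lower), and the spread narrows from the left to the right of the plot.

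Most genes differed little. The SD of the change was 0.41, and 9792 genes (90.8%) lay within 0.5 of 0. Counting error alone was small at this depth: the interval left out 0 for 6809 genes (63.2%) and for all 234 genes past the limit. The share past the limit depended on abundance, at 6.32% of genes with a mean of 200 to 500, 2.81% at 500 to 1000, 17 higher and 14 lower of 2381 genes at 1000 to 2000, 1.09% at 2000 to 5000 and 0.516% above that. A change of 2 or more was seen in 25 higher and 35 lower genes, and of 3 or more in 8 and 18. The mean that set the abundance limit included both control-hairpin libraries. With a mean over sh-CTL and sh-METTL3 alone, 120 genes passed the limit of 1 on the higher side and 110 on the lower. Under the same limit, sh-CTL + PLK1i differed from sh-CTL in 0.241% of genes. The control library is common to these comparisons. By type, 221 of 10146 protein-coding genes (2.18%) and 7 of 333 long noncoding RNAs (2.10%) passed the limit.

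The 15 largest falls below sh-CTL held receptors, matrix genes and genes of the cytoskeleton. The lowest was TGFBR2, the ligand-binding receptor of TGF-beta, with normalized read counts of 559 in the control, 2.78 in the knockdown and 540 in the inhibitor library. Only 3 reads remained in sh-METTL3, a ratio of 201-fold with a counting interval of 68.3 to 977, and the change was -7.21 with the pseudocount of 1 and -4.94 with one of 16. EPHA3, an ephrin receptor tyrosine kinase on the same chromosome (3, 89156771 to 89531284), was at 722, 20.4 and 534. Both control-hairpin libraries were therefore far above sh-METTL3 for either receptor.

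CCN2, a secreted matricellular protein that is a textbook target of both TGF-beta and the coactivator YAP, had 408, 12.05 and 518. Its promoter is printed because it held 3 copies of GGAATG, the reverse complement of the CATTCC letters bound by TEAD factors. CATTCC on either strand was found in 3836 of all 27305 RefSeq promoters (GRCh38.p14, 250 bases before to 50 after the start), in 10.4% of those of described genes, in 18.3% of those of lower genes and in 11.8% of those of higher genes. Each line is 28 bases on the minus strand of chromosome 6, read with the gene, and the capitals are the match. The middle and proximal windows overlap.
CCN2 distal match, chr6:131951525-131951552: tttcagacggaGGAATGctgagtgtcaa
CCN2 middle match, chr6:131951460-131951487: gaaggtggggaGGAATGcgaggaatgtc
CCN2 proximal match, chr6:131951451-131951478: gaggaatgcgaGGAATGtccctgtttgt

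The matches begin 169, 104 and 95 bases before the start of CCN2. Also in the lowest 15, COL3A1, VCAN and HAPLN1 build or hold the matrix. COL3A1, the fibrillar type III collagen chain, was at 615, 42.6 and 378. VCAN, the large chondroitin sulfate proteoglycan versican, was at 1448, 105 and 769. HAPLN1, the link protein that fastens such proteoglycans to hyaluronan, was at 689, 49.1 and 471. VCAN and HAPLN1 lie side by side on chromosome 5, at 82767437 to 82878122 and 82933624 to 83016674 on opposite strands, and both stood at about the same level relative to sh-CTL, 7.23% and 7.13%. MMP1, the interstitial collagenase, was the only one of these genes that also differed by more than the limit between the control-hairpin libraries, at 351 in the control, 4.63 in the knockdown and 841 in the inhibitor library.

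SNAI2, a zinc-finger repressor of epithelial genes, was at 337, 18.5 and 454. PDLIM1, a LIM-domain protein of actin stress fibres, was the most abundant of the 15 and went from 2059 to 65.8, with 2335 in sh-CTL + PLK1i. MAP1B, a microtubule-associated protein of growing axons, was at 1455, 143 and 1557. MYH15, a myosin heavy chain, was at 745, 51.9 and 817. TPD52L1, a coiled-coil protein of the D52 family, was at 503, 5.56 and 499.9. For each of these genes the inhibitor library was close to or above the control and the knockdown far below both.

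The last of the lowest 15 were MLIP, a lamin-binding protein of muscle, at 524, 49.1 and 448, DOC2B, a calcium sensor for exocytosis, at 642.5, 63.0 and 347, and ELOVL6, the elongase that makes stearate from palmitate, at 275, 28.7 and 323. For ELOVL6, the smallest of these differences, the change was -3.22 with a counting interval of -3.85 to -2.72. SERPINA3, a secreted protease inhibitor, would have stood among them at 5257, 266 and 4384, but shares its strand with another listed gene and its reads are uncertain.

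**Figure D2:**
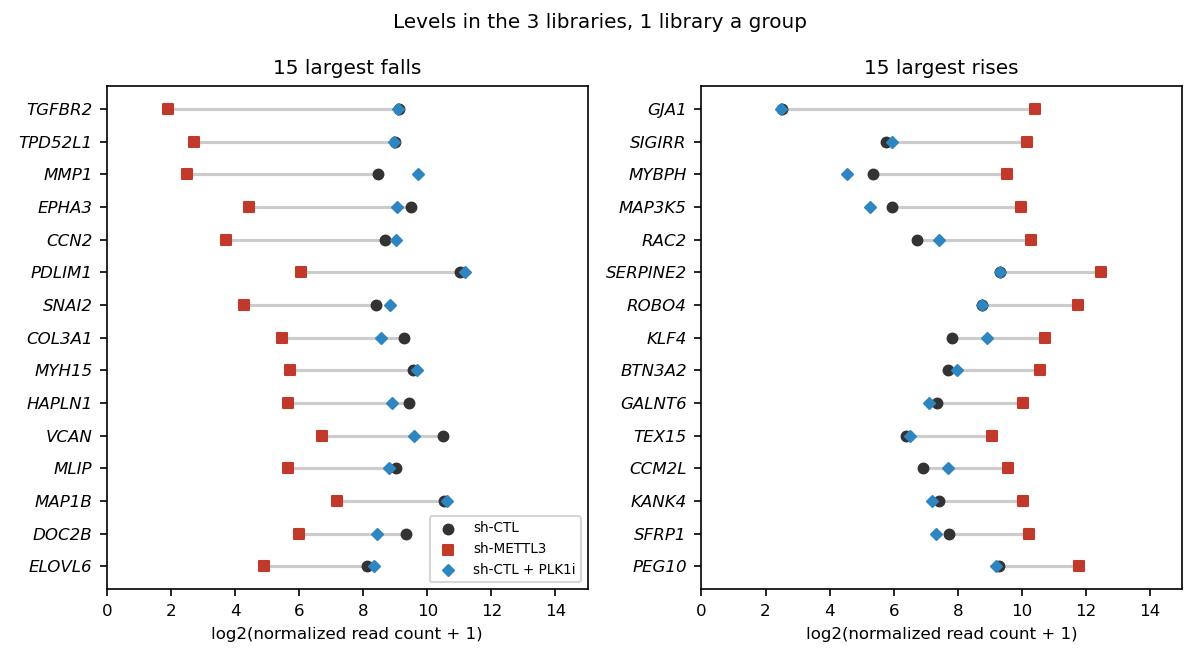
Levels as log2(normalized read count + 1) on the x axis for the 15 genes furthest below sh-CTL (left) and the 15 furthest above (right), with circles for sh-CTL, squares for sh-METTL3 and diamonds for sh-CTL + PLK1i, 1 library each. In every row the 2 control-hairpin libraries lie on the same side of sh-METTL3, with MMP1 and KLF4 the rows in which they differ by more than 1.

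At the other end stood GJA1, the gap junction protein connexin 43. It had 4.66 in the control, 1363 in the knockdown and 4.603 in the inhibitor library, or 4, 1470 and 5 reads. Its promoter is shown because it held the AP-1 letters, the site of FOS and JUN dimers, 48 bases before the start. TGAGTCA or its reverse complement TGACTCA was found in 4.92% of all promoters and in 2.72% of those of described genes, 3 of 85 among the higher genes and 3 of 93 among the lower genes. The window is on the plus strand with the match in capitals.
GJA1, chr6:121435588-121435615: tcctcccagtTGAGTCAgtggcttgaaa

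SIGIRR, a receptor of the interleukin-1 family that damps signalling, was at 53.6 in the control, 1141 in the knockdown and 60.8 in the inhibitor library. MAP3K5, the stress kinase ASK1, was at 60.6, 996 and 37.7. RAC2, a small GTPase best known from blood cells, was at 105, 1236 and 170. These signalling genes were all under 200 in both control-hairpin libraries. They are among 41 of the 111 higher genes that were under 200 in sh-CTL, while 58 of the 123 lower genes were under 200 in sh-METTL3.

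SERPINE2, an inhibitor of thrombin and urokinase, was the most abundant of the 15 highest, at 642.5 in the control, 5664 in the knockdown and 634 in the inhibitor library. The change was 3.14 with a counting interval of 3.01 to 3.27. ROBO4, a Roundabout receptor known from endothelium, was at 435, 3429 and 427. SFRP1, a secreted antagonist of Wnt, was at 209, 1194 and 157. PEG10, an imprinted gene derived from a retrotransposon, was at 619, 3527 and 584. For SERPINE2, ROBO4 and PEG10 the control-hairpin libraries differed from each other by less than 0.1 on the log2 scale.

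KLF4, a zinc-finger factor of epithelial differentiation, was at 226, 1700 and 481, and thus also stood above the limit in the inhibitor library. Its change was 2.90 against sh-CTL and 1.82 against sh-CTL + PLK1i. BTN3A2, a butyrophilin, was at 205, 1505 and 249. GALNT6, an enzyme that starts mucin-type O-glycosylation, was at 163, 1057 and 137. The remaining ones were MYBPH, a myosin-binding protein, at 39.6, 744 and 22.1, TEX15, a germ-cell gene, at 82.8, 531 and 89.3, CCM2L, a relative of the vascular scaffold CCM2, at 120, 766 and 204, and KANK4, an adhesion-linked KANK protein, at 168, 1045 and 146.

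Gene lists place these extremes among their pathways. For each list the count past the limit is read against 1.03% higher and 1.14% lower over all described genes, and the median against -0.01. The lists were made with earlier results known and the counts are a description.

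In TGF-beta signalling, 40 described genes gave 1 higher and 4 lower, with a median of -0.22. The ligands TGFB1, TGFB2 and TGFB3 were at -0.32, 0.30 and -0.07, and the SMAD transducers SMAD2, SMAD3 and SMAD4 at -0.36, 0.27 and -0.27. TGFBR2 was the sole receptor past the limit. Its partner kinase TGFBR1 was at 0.32 and the co-receptor TGFBR3 at 0.84, from 1214 in sh-CTL to 2174 in sh-METTL3. The 11 targets had a median of -0.60 with 9 below 0, against medians of 0.14, -0.11, 0.08 and -0.22 for ligands, receptors, SMADs and inhibitors. Beside CCN2, ID2, an inhibitor of helix-loop-helix factors, was lower at 2677, 819 and 1852. PMEPA1, which retains SMADs, was at -0.97, CCN1, a relative of CCN2, at -0.95 and ID3 at -0.86. TGFBI, a secreted adhesion protein, was the target past the limit on the other side, at 933, 1976 and 839, and TIMP1 was at 0.30. SKIL, a SMAD corepressor that the pathway itself induces, was lower at 905, 308 and 955. Of the 10 described inhibitors of the pathway 7 were below 0 and 3 above, from -1.55 for SKIL to 0.06. Under the abundance limit, SMAD7, SMAD6 and BAMBI were also lower in value, and other list genes under that limit are not given. SMAD7 was at 58.3 in sh-CTL and 9.27 in sh-METTL3, SMAD6 at 153 and 59.3, and BAMBI at 107 and 33.4.

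The YAP and TEAD list overlapped this one at CCN2 and CCN1 and otherwise lay near 0. Of its 26 described genes 1 was lower, CCN2, and the median was -0.01. The coactivators YAP1 and WWTR1 were at 0.09 and 0.01, TEAD1 at 0.04, and the targets AJUBA and AXL at -0.02 and -0.09. CCN1 stood at 3363 in the control, 1738 in the knockdown and 6246 in the inhibitor library.

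Junction and adhesion genes gave most of their calls on the higher side. Of 5 described connexins, 3 were higher, among them GJA1 and GJB2, the latter at 299.7, 862 and 329. GJA3 and GJC1 were at 0.13 and 0.01, and the channel-forming pannexins PANX1 and PANX2 at -0.22 and -0.15. GJB5, below the abundance limit, went from 95.6 to 369. The scaffold TJP1, which binds connexin tails, was at -0.01.

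No classical cadherin was among the described genes. Of 12 genes of cadherin junctions, DSG2, a desmosomal cadherin, was higher at 339, 1711 and 365, and PCDH1, a protocadherin of epithelia, was lower at 4663, 947 and 4733. The desmosomal plaque protein DSP was at -0.78 and PKP2 at -0.75, opposite in direction to DSG2. The catenins lay between -0.26 and 0.24. In the integrin list 2 of 18 were higher, the collagen-binding subunit ITGA10 at 121, 492 and 170 and the laminin-binding subunit ITGB4 at 3265, 7386 and 2856. ITGA6, the partner of ITGB4 in hemidesmosomes, was at 1228, 2380 and 1277, a change of 0.95. ITGB1, the most widely shared beta subunit, was at -0.07.

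Matrix proteins were mostly on the lower side. Of 21, none was higher and 3 were lower (COL3A1, VCAN and COL6A3), with a median of -0.24. COL6A3, a chain of microfibrillar collagen VI, was at 15271, 6896 and 13442, and its change against sh-CTL + PLK1i was -0.96, under the limit. Its sister chains COL6A1 and COL6A2 were at -0.24 and -0.03. AGRN, a basement membrane proteoglycan, was at -0.94, the laminin chain LAMA5 at -0.80 and the matrilin MATN2 at 0.95. Among 17 proteases and inhibitors, MMP1 was lower and SERPINE2 higher. The membrane-bound MMP14 was at 0.60, and the urokinase gene PLAU and its receptor PLAUR at 0.17 and 0.29.

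Genes that tell epithelial from mesenchymal cells gave 1 higher (KLF4) and 1 lower (SNAI2) of 19. Of the 8 described epithelial genes of this list 6 were above 0, while CLDN4 and OCLN were at -0.35 and -0.20. All 6 keratins of the table's described genes, a family taken by symbol, were above 0. Their median was 0.40, with a range from 0.26 for KRT8 to 0.68 for KRT15. Of the 8 mesenchymal genes 7 were below 0, with VIM, the intermediate filament vimentin, at -0.40, TAGLN, an actin-binding protein, at -0.57 and CALD1, caldesmon, at -0.32. ZEB1, another repressor of epithelial genes, was at 0.25. None of these structural genes passed the limit.

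**Figure D3:**
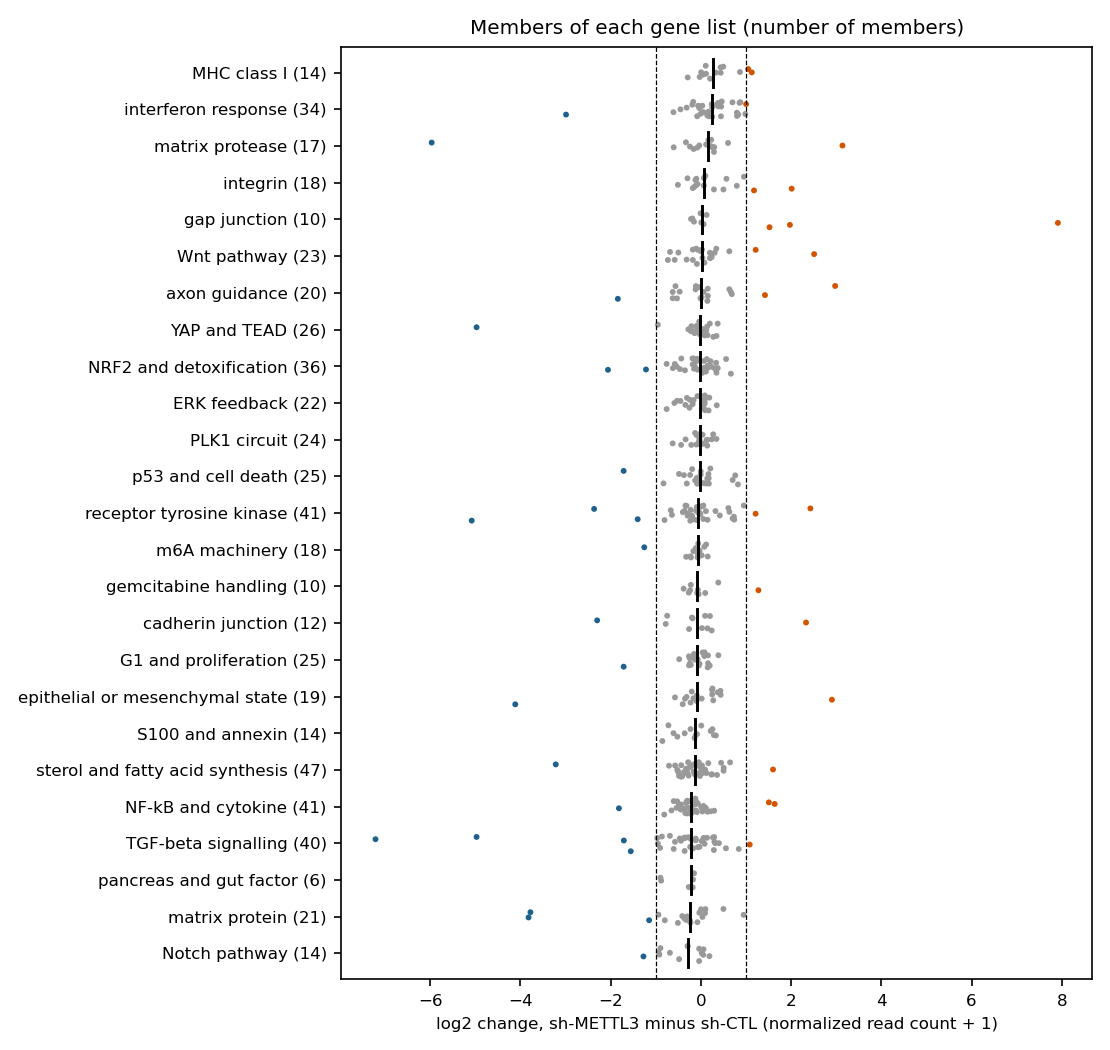
Log2 change between sh-METTL3 and sh-CTL on the x axis for the members of 25 gene lists, 1 point a gene, with the number of described genes in brackets and a black bar at the median. Orange and blue points lie past 1 in size, and medians run from -0.29 for the Notch pathway to 0.27 for MHC class I.

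Receptor tyrosine kinases and their ligands gave 2 higher and 3 lower of 41, with a median of -0.06. Within the Eph family the extremes were opposite: EPHA3 was lower, while EPHA7 was higher at 238 in the control, 1284 in the knockdown and 207 in the inhibitor library. The ephrin EFNB2, a ligand of EphB receptors, was higher at 596, 1383 and 881, with a change of 0.65 against the inhibitor library. ROR1, an orphan receptor that binds WNT5A, was lower at 293, 110 and 210, and at -0.92 against the inhibitor library. The growth factor IGF2 was lower at 678, 131 and 693 but overlaps another listed gene on its strand, so its reads are uncertain. EGFR, ERBB2 and MET, often studied in this cancer, were at -0.34, -0.05 and -0.29. The growth factor BTC, a ligand of EGFR, was at 0.95.

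In the Wnt pathway 2 of 23 were higher, SFRP1 and the transcription factor TCF7, which was at 6236, 14477 and 5444. The frizzled receptors FZD4 and FZD7 were at -0.73 and -0.68 and beta-catenin, CTNNB1, at 0.24. The Notch pathway had a median of -0.29 over 14 genes with 10 below 0 and 1 lower. The ligand JAG1 was at 10574, 4378 and 7839, and at -0.84 against the inhibitor library. JAG2 was at -0.92, the fringe glycosyltransferase LFNG at -0.94 and the target HES1 at -0.90. The receptors NOTCH1, NOTCH2, NOTCH3 and NOTCH4 were at 0.02, -0.29, -0.48 and -0.29. In axon guidance 2 of 20 were higher, ROBO4 and the co-receptor NRP1, at 413, 1107 and 388, and 1 was lower, the secreted semaphorin SEMA3D, at 1034, 288 and 1181.

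Interferon and antigen presentation genes lay above 0 on balance, with few past the limit. Of 34 interferon response genes, 23 were above 0, the median was 0.24, and 1 was higher and 1 lower. The lower was BST2, the tetherin that holds viruses at the membrane, at 345, 42.6 and 296. The higher was IFI6, at 183, 368 and 217, just past the limit, with a change of 0.99 with a pseudocount of 4 and of 0.76 against the inhibitor library. OAS3, UBE2L6 and USP18 were at 0.86, 0.99 and 0.83, while IFITM3 was at -0.45. The ISRE (GAAA, any 2 bases, GAAA) on either strand, the response element of interferon-stimulated genes, was found in 3.65% of all promoters, in 2.56% of those of described genes and in 15 of the 19 effector genes of this list with a promoter. BST2 and IFI6, the pair that moved apart, both held it upstream of their starts on the minus strand, with 2 overlapping matches in BST2 and 3 matches in IFI6. The match furthest from the start is in capitals.
BST2, chr19:17405742-17405769: cctttctggGAAACTGAAActgaaaacc
IFI6, chr1:27672330-27672357: gagagagggGAAAATGAAActctgcaga

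The matches in BST2 begin 130 and 124 bases before its start and those in IFI6 156, 115 and 93 bases before. In MHC class I presentation, 2 of 14 were higher and none lower, with a median of 0.27 and 12 above 0. The heavy chain HLA-B was at 710.2, 1553 and 903, and its change against the inhibitor library was 0.78. HLA genes share sequence, and how well shared reads were assigned among them was not tested. NLRC5, the transactivator of these genes, was at 192, 399 and 189.6, and was under the limit with a pseudocount of 16, so that either call was lost under an alternative. TAP1, a peptide transporter, was at 0.87 and the light chain B2M at 0.01.

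In the NF-kB and cytokine list, 2 of 41 were higher and 1 lower, with a median of -0.21 and 31 below 0. The TNF receptor TNFRSF1B was higher at 371, 1056 and 333. The death receptor TNFRSF21 was at 133, 415 and 238, and at 0.80 against the inhibitor library. The chemokine CXCL2 was lower at 247, 69.5 and 427, with CXCL5 at -0.81 and CXCL8 at -0.65. NFKBIA, the inhibitor that NF-kB induces, was at -0.53. BIRC3, another induced gene, was at -0.49.

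Metabolic and growth lists held few genes past the limit. In sterol and fatty acid synthesis, 1 of 47 was higher and 1 lower, and 16 of the 20 sterol enzymes were below 0, with MSMO1 at -0.71, CYP51A1 at -0.57 and HMGCS1 at -0.49. Over the whole list the median was -0.13 against sh-CTL and 0.04 against sh-CTL + PLK1i, so its direction depended on the control library. ABCA1, the exporter of cholesterol, was higher at 168, 511 and 168. ELOVL6 stood alone among its relatives, with ELOVL1 at -0.16 and ELOVL5 at 0.25.

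Of 36 genes of the NRF2 and detoxification list 2 were lower. AKR1C1, an aldo-keto reductase of steroids, was at 2455, 589 and 2442, and ALDH1L2, a mitochondrial folate enzyme, at 410.5, 176 and 479.6. The NRF2 targets NQO1, HMOX1 and GCLM were at 0.13, -0.10 and 0.06. CDKN1A, the cell cycle inhibitor p21, was lower at 506, 154 and 766, and was the 1 gene past the limit among 25 of the p53 list and the 1 among 25 of the G1 list. The p53 targets MDM2 and BAX were at -0.31 and 0.17, and CCND1 and CDK4 at 0.09 and 0.39. None of 22 genes of ERK feedback passed the limit, where DUSP5 was at 0.17, SPRY2 at 0.05 and IER3 at -0.76. Of 10 genes that handle gemcitabine, CDA, the deaminase that inactivates the drug, was higher at 243, 589 and 219, and DCK, the kinase that activates it, was at -0.38.

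None of 14 S100 and annexin genes and none of 6 pancreas and gut factors passed the limit. ANXA1, a phospholipid-binding protein, was at -0.85 and S100A2 at -0.72. All 6 pancreas and gut factors lay below 0, with EHF, an ETS factor of epithelia, at -0.88, HES1 at -0.90 and SOX9 at -0.18.

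Families taken by symbol are given beside the pathway lists, and they too were made with earlier results known. The 82 cytosolic ribosomal protein genes had a median of 0.12, with 75 above 0 and none past the limit. The 78 mitochondrial ribosomal protein genes were at 0.02, the 37 subunits of respiratory complex I at 0.06 and the 35 proteasome subunits at -0.03. The 348 ZNF zinc finger genes had a median of 0.07, with 215 above 0, none higher and 2 lower, a share of 0.575%. The 183 solute carriers gave 1 higher and 1 lower. Kinesins (29), SR splicing factors (11), hnRNP genes (22) and aminoacyl-tRNA synthetases (17) gave none. Over all described genes the share past the limit was 2.17%, at which families of 11 to 29 genes would hold few or none. The shares of the larger ZNF and solute carrier families, 0.575% and 1.09%, lay below it, and these differences were not tested. Among KLF factors 2 of 9 were higher, KLF4 and KLF9. Among 10 serpins, SERPINE2 and SERPINA3 stood at opposite ends.

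Since METTL3 acts on DRACH letters, the change was set against the sequence of each gene's transcript. The 10143 protein-coding genes with a coding sequence in the annotation were put in 5 bins of equal size by GGACT matches per kb. The median change was 0.01 in the bin with the fewest matches and -0.01 in that with the most, with the 3 bins between at -0.03, -0.02 and -0.02. By all DRACH matches per kb the medians ran from -0.03 to -0.00, and by length of the 3′ UTR from -0.03 to 0.01. The interquartile range within a bin was far wider than these shifts, from -0.16 to 0.13 in the bin with the most GGACT matches. PLK1 and METTL3 had 2.31 and 2.02 GGACT matches per kb.

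The share past the limit varied more with the structure of the transcript. It was 1.38% in the shortest and 3.10% in the longest transcripts of 5 bins. It was 1.67% where the longest internal exon was at most 200 bases or there was no internal exon, and 3.99% where that exon was over 1000. In 5 bins by number of exons the share was 3.15% in the bin with the fewest and 2.41% in that with the most. The bins between lay from 1.58% to 1.87%. An internal exon over 400 bases was present in 29.9% of higher, 31.6% of lower and 20.1% of other genes. The share of called genes also varied with abundance, and the part of abundance in these shares was not tested.

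**Figure D4:**
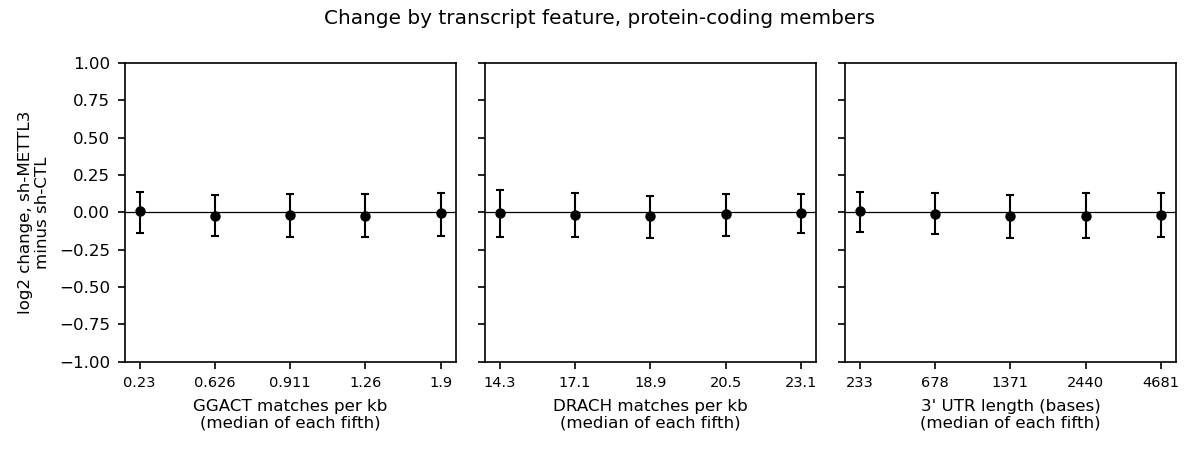
Median log2 change between sh-METTL3 and sh-CTL (points) with the interquartile range (bars), for 5 bins of 10143 protein-coding genes by GGACT matches per kb, DRACH matches per kb and 3′ UTR length in bases, each bin placed at its rank and marked with its median. All medians lie between -0.03 and 0.01.

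The other motifs were searched on either strand in the same promoters. The GC box GGGCGG, bound by SP1 and KLF proteins, was in 72.5% of promoters of described genes, 54.8% of those of lower and 74.1% of those of higher genes. TATAAA was in 4.72%, 9.68% and 10.6% in that order. The E-box CAGGTG, bound by SNAI and ZEB repressors such as SNAI2, was in 17.1%, 21.5% and 27.1%, and the SMAD letters GTCTAGAC or CAGACA in 11.4%, 15.1% and 11.8%. The ISRE was in 4 lower and 4 higher genes, the sterol element TCACNCCAC in 2 and 0, and the NF-kB core (GGGA, any 2 bases, TTCC) in 2 and 1. Promoters were matched for 93 of the 123 lower and 85 of the 111 higher genes, and no difference between these shares was tested.

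The changes differed by chromosome. On chromosome 7, 457 of 519 described genes (88.1%) were below 0, and the median was -0.26, whereas in the inhibitor library the median of the same genes was 0.00. Of these genes 13 were lower and 1, PEG10, was higher. In 8 blocks of consecutive genes, the first, which begins at FAM20C, had all 65 genes below 0 and a median of -0.42, and the next 3 had medians of -0.32, -0.33 and -0.36. The 4 blocks of the far end had medians between -0.24 and -0.14. The lower genes there included SEMA3D, the endothelial nitric oxide synthase NOS3, at 452 in the control, 146 in the knockdown and 446 in the inhibitor library, and the transcription factor CREB5, at 1404, 413 and 1872.

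Chromosome 18 was split. Taken in 4 blocks in gene order, none of the 37 genes of block 1, from USP14 to CEP76, was below 0, and their median was 0.39. In block 2 the median was -0.16. In block 3, from ELP2 to MALT1, 35 of 37 were below 0, with a median of -0.32, and in block 4, 30 of 36 with -0.30. Of the genes past the limit, MTCL1 and GNAL of block 1 and DSG2 of block 2 were higher, while FHOD3, LIPG, MEX3C and NEDD4L of block 3 were lower. NEDD4L, a ubiquitin ligase of ion channels, was at 2039, 546 and 2405.

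Chromosome 9 lay above 0, with 314 of 438 genes and a median of 0.10. Block 2 of 4, which holds KLF4, KLF9 and ABCA1, had a median of 0.23 and 5 of the 7 higher genes of this chromosome. The medians of the other chromosomes lay between -0.06 and 0.07. Of the genes named above, LFNG, SEMA3D, MET, EGFR, CYP51A1, COL1A2, CLDN4, CALD1, IGF2BP3 and PEG10 lie on chromosome 7, and DSG2, SMAD2, SMAD4 and SMAD7 on chromosome 18. The part of the chromosome in their changes was not tested. METTL3 and PLK1 lie on chromosomes 14 and 16, whose medians were -0.03 and -0.05.

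**Figure D5:**
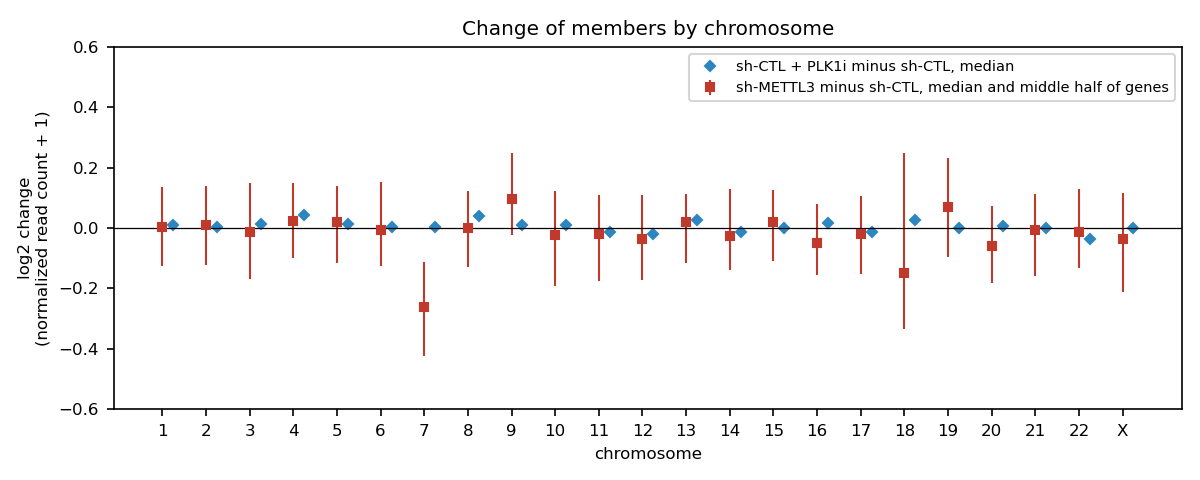
Median log2 change of described genes by chromosome, with squares and bars (interquartile range) for sh-METTL3 against sh-CTL and diamonds for sh-CTL + PLK1i against sh-CTL. Chromosome 7 lies lowest at -0.26, chromosome 18 has the widest bar, and the inhibitor medians stay near 0 on every chromosome.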

How the data were processed

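ISOGEN was used for RNA, and a stranded kit for polyadenylated RNA for the libraries. The submitters' processing notes name FastQC 0.11.9, STAR 2.7.10, RSEM 1.3.3 and hg19. The normalization was not given in the sources used here. The authors deposited log2 values for 14949 genes in 3 libraries. These fitted the log2 of a read count that had been scaled and raised by 4. After undoing the log2 and subtracting 4, 1 read came to 1.17 in the control, 0.927 in the knockdown and 0.921 in the inhibitor library, and 100% of values under 2000 reads lay within 0.1 of a whole number. The scaled values are called normalized read counts.

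The members, lists and families were chosen with earlier results of these data known. Abbreviated column names gave the sample of each column. Changes are differences of log2(normalized read count + 1), which understates those of genes with few reads. With 1 library a group no count test was run. Intervals of single genes are exact Clopper-Pearson intervals at 95% of the ratio of reads. They cover counting error only and take reads as independent, although amplified reads are not independent molecules. Scripts were tested on simulated data. Named genes were METTL3, PLK1, TGFBR2 and GJA1, the 15 largest differences each way among genes with a symbol and no listed gene overlapping on their strand, and in each list those past 1 or otherwise up to 4 of the largest, with others needed to describe a role. Positions, types and transcript sequences came from GENCODE 44 mapped to GRCh37, 1 canonical transcript a gene. Promoters came from RefSeq (GRCh38.p14) and matched 8541 of 10776 symbols. The 9 motifs searched were AP-1, TEAD, SMAD, E-box, ISRE, sterol, NF-kB, TATA and GC box letters. Python 3.11.15, pandas 2.3.3 and scipy 1.17.1 were used. Some genes are not reported here. The alternatives were 2 pseudocounts, 3 abundance limits, a mean over the compared libraries, 3 scalings, 2 thresholds, protein-coding genes, genes without overlap and the inhibitor library as control.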

Additional observations from a re-analysis of the deposited data

How the results depend on the processing

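No paired analysis was possible because each group had 1 library, and for the same reason no replicate could be left out. Against 111 higher and 123 lower genes, a mean of 100 or more gave 168 and 170, a mean of 500 or more 60 and 66, and no limit on abundance 512 and 440. A limit of 0.58 gave 345 higher and 391 lower genes and a limit of 2 gave 25 and 35. The other alternatives kept both counts within 1.5 times. With a mean over sh-CTL and sh-METTL3 alone, though, the larger count was on the higher side, at 120 higher and 110 lower genes. No scaling moved the median of all genes by more than 0.0197, and the share of higher among called genes stayed between 47.4% and 49.4% under all of them. With sh-CTL + PLK1i as the control there were 127 higher and 158 lower genes, the median of the pancreas and gut factors was -0.11 in place of -0.22, and that of sterol and fatty acid synthesis was 0.0399 in place of -0.13. Of 300 medians of lists under alternatives, these 2 were the ones outside the interval of the list's own median. That interval is a 95% binomial interval of the median over the genes of a list, which are not replicates. It is wide for small lists, from -0.90 to -0.15 for the pancreas and gut factors, so a median within it says little about stability. Of 62 named genes under 6 alternatives, none changed sign, and 34 of the 372 values lay outside the counting interval of the gene. A pseudocount of 16 took TGFBR2 from -7.21 to -4.94, GJA1 from 7.91 to 6.06, TPD52L1 from -6.26 to -4.59 and MMP1 from -5.97 to -4.15. In 11 of the 372 values, belonging to 9 genes, a gene left the limit of 1, among them IFI6, NLRC5, COL6A3, ROR1, EFNB2, JAG1, HLA-B and TNFRSF21. The cause was not tested. Variation between cultures was not measured, and levels of at most 3 reads, seen for 45 genes in sh-CTL and 53 in sh-METTL3, carry wide counting intervals.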

Other observations

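Some families outside the lists were chosen after their values were seen and are given as values only. Of 4 butyrophilins among the described genes, immunoglobulin-like proteins encoded in 1 cluster on chromosome 6, 3 were higher: BTN3A2, BTN2A2 at 801 in the control, 2333 in the knockdown and 959 in the inhibitor library, and the pseudogene BTN2A3P at 455, 1012 and 432. BTN2A1 was at 0.23. Members of such a cluster share sequence, and how well shared reads were assigned among them was not tested. Both described IGF-binding proteins were higher, IGFBP4 at 673, 3792 and 678 and IGFBP6 at 3026, 6107 and 2540. Among the LRRC8 subunits of the volume-regulated anion channel, LRRC8C was higher at 104, 558 and 126, LRRC8D and LRRC8B were at 0.78 and 0.41, and LRRC8A and LRRC8E at -0.04 and -0.05. LRRC8B, LRRC8C and LRRC8D all lie on chromosome 1.

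Both synaptotagmin-like genes, effectors of RAB27 in vesicle docking, were lower, SYTL1 at 409, 147 and 239 and SYTL2 at 268, 108 and 276. Of the planar polarity genes, PRICKLE2 was lower at 482, 131 and 518 and PRICKLE1 at 520, 220 and 436, with PRICKLE3 at -0.49. MAP2, a microtubule protein of dendrites, was lower at 945, 412 and 1005, beside MAP1B, whereas MAP4 and MAP1A were at -0.10 and 0.16. TXNIP, which binds thioredoxin, was at 711, 1971 and 1822, higher in the knockdown and in the inhibitor library alike. The related ARRDC3 was at 1344, 843 and 2226.

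Of the genes without a symbol, which the named genes leave out, ENSG00000277991 was at 313, 23.2 and 284, a change of -3.70, and its position is not known here. ENSG00000285901 had 0 reads in the control, 215 in the knockdown and 494 in the inhibitor library. It overlaps TIGAR on its strand, so its reads are uncertain.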
